A study of Mus musculus with 15 samples.

Results

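Glutathione and antioxidant enzyme genes were followed in cultured mouse white adipocytes that spent 0 days, 1 day or 12 days at 31°C. Members were chosen by gene symbol: the glutathione S-transferases (Gst and Mgst genes), glutathione peroxidases (Gpx), peroxiredoxins (Prdx) and genes whose symbol starts with Txn, together with Gclc, Gclm, Gss, Gsr, Glrx, Sod1, Sod2, Sod3, Nqo1, Srxn1, Nfe2l2 and Keap1. Of the 18804 genes in the count table, 68 were members, and 61 of these passed the filter on low counts among 14293 genes tested. A few members matched by symbol only in a broad sense. Nfe2l2 (encoding Nrf2) and Keap1 are regulators and not enzymes, Txnip binds and inhibits thioredoxin, and Txnl4a and Txnl4b are thioredoxin-fold proteins of the spliceosome.

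The cells were mesenchymal stem cells of wild-type C57BL/6J mice, turned into adipocytes with methylisobutylxanthine, dexamethasone, insulin and troglitazone, and RNA of 15 samples was sequenced. All were harvested on day 16 of adipogenesis. The day 12 group (n = 5) was transferred from 37°C to 31°C on day 4, the day 1 group (n = 5) on day 15, and the day 0 group (n = 5) was never moved, so the day 12 cells completed their differentiation in the cool and the day 1 cells did not. The groups had the same genotype and medium. It was not given whether the 5 samples in each group were different mice or different dishes, so each p-value measures only the spread between these samples.

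Glutathione is a small thiol made from cysteine, glutamate and glycine. Glutamate-cysteine ligase (Gclc and Gclm) joins the cysteine to the glutamate, Gss adds the glycine, and Gsr reduces the oxidised form again with NADPH. Peroxidases use glutathione to reduce peroxides, transferases attach it to reactive compounds, and peroxiredoxins do the peroxidase work with electrons from thioredoxin. Many of these genes are classical targets of the transcription factor Nrf2, which the adaptor Keap1 holds at a low level until it is modified by electrophiles or oxidants. In adipose tissue this machinery is known for handling the aldehydes and peroxides that come from stored lipid.

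Each library held 64648178 to 133270973 counts in genes, and levels are given as CPM, the count of a gene relative to the size of its library, adjusted by TMM. A count of 0 allowed a level of up to 0.0238 to 0.0428 CPM, taken as 3 counts and covering counting error only. A gene was called higher or lower at a Benjamini-Hochberg adjusted p below 0.05 in the quasi-likelihood test of edgeR together with a fold change over 1.5, which is 0.585 on the log2 scale. Differences are given as log2 fold change ± SE. The summed level of 8 adipocyte markers was 4210 to 4827 CPM in the day 0 group, 5166 to 5731 at day 1 and 4442 to 4991 at day 12, and that of 8 stromal progenitor markers was 3893 to 4265, 3475 to 3718 and 3103 to 3459 CPM. All 8 adipocyte markers were detected, with Lpl, Fabp4 and Adipoq making up most of the sum, but they did not move together. Fabp4 was called higher at both days (0.76 ± 0.045 and 0.97 ± 0.045), while Cidec (-2.62 ± 0.048 and -1.59 ± 0.045) and Lep (-0.65 ± 0.17 and -0.69 ± 0.17) were called lower at both, and Adipoq (-1.24 ± 0.029) and Pparg (-0.59 ± 0.033) lower at day 12. The median over the 8 was 0.14 at day 1 and -0.33 at day 12. Summed muscle and cartilage markers were at 184 to 247 CPM over all groups, carried by Col2a1 and Acan, and Acan was called lower at day 12 (-0.97 ± 0.079). Summed markers of macrophages (at most 14 CPM), endothelium (at most 1.77 CPM) and keratinocytes (at most 1.72 CPM, with Krt5 and Krt1 at 0 in every library at days 1 and 12) were low. In bulk RNA, fewer cells of a type and less RNA per cell cannot be told apart.

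At day 1, cells held at 31°C had higher levels of Nqo1, Srxn1, Prdx1, Txnrd1, both subunits of glutamate-cysteine ligase (Gclc and Gclm) and the reductase Gsr, none of which was called at day 12 against day 0. Glrx, Gsto1, Mgst2 and Txnrd3 were higher at day 1 and at day 12, and Gss, the other enzyme of glutathione synthesis, was not called. Lower at day 12 against day 0 were 9 glutathione S-transferases, the peroxidases Gpx3 and Gpx8, Sod3 and Txnip. At day 1 against day 0, 13 of the 61 members tested were called higher (21.3%, against 7.71% of all genes tested) and 6 lower (9.84%, against 13.4%). At day 12 against day 0 the counts were the reverse, with 5 members higher (8.2%, against 13% of all genes) and 13 lower (21.3%, against 16.2%). Between day 1 and day 12, 15 members were lower at day 12 (24.6%, against 8.53%) and 1, Gsta3, was higher (1.64%, against 10.6%). The median log2 fold change over the 61 members was 0.25 at day 1 and 0.00 at day 12 against day 0, and -0.19 at day 12 against day 1, beside -0.01, 0.01 and 0.01 over all genes. Both comparisons with day 0 use the same 5 day 0 libraries. Adjusted p of called members was at most 0.00129, 5.41e-05 and 0.00189 in the 3 comparisons.

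The split at day 12 depended on the scaling. Scaled by total counts, which moves the median of all genes to 0.21 at day 12 against day 0 and to 0.18 against day 1, 12 members were higher and 9 lower than at day 0 (19.7% and 14.8%, against 20.9% and 11.7% of all genes), and 3 were higher and 12 lower than at day 1 (4.92% and 19.7%, against 15.7% and 5.9%). Scaled to the sum of the reference genes Hprt, Tbp and B2m, the median of all genes moved to 2.02 and 1.97, and 57 members were higher and 0 lower against day 0 (93.4% higher, against 94.6% of all genes) and 56 higher and 0 lower against day 1 (91.8% higher, against 97.2%). B2m held 95.78% of those summed counts and was itself at a log2 fold change of -2.12 at day 12. Scaled to the geometric mean of the 3 genes instead (median of all genes at 0.90 and 0.92), 41 members were higher and 4 lower than at day 0 (67.2% and 6.56%, against 70.3% and 4.27% of all genes), with 33 higher and 3 lower than at day 1 (54.1% and 4.92%, against 79.8% and 1.46%). All day 12 directions below are relative to the median of all genes. On that footing no called change of a named member was reversed by any scaling. Subtracting the median takes out most of what a scaling changes, so this cannot test whether the directions depend on the scaling.

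**Figure D1:**
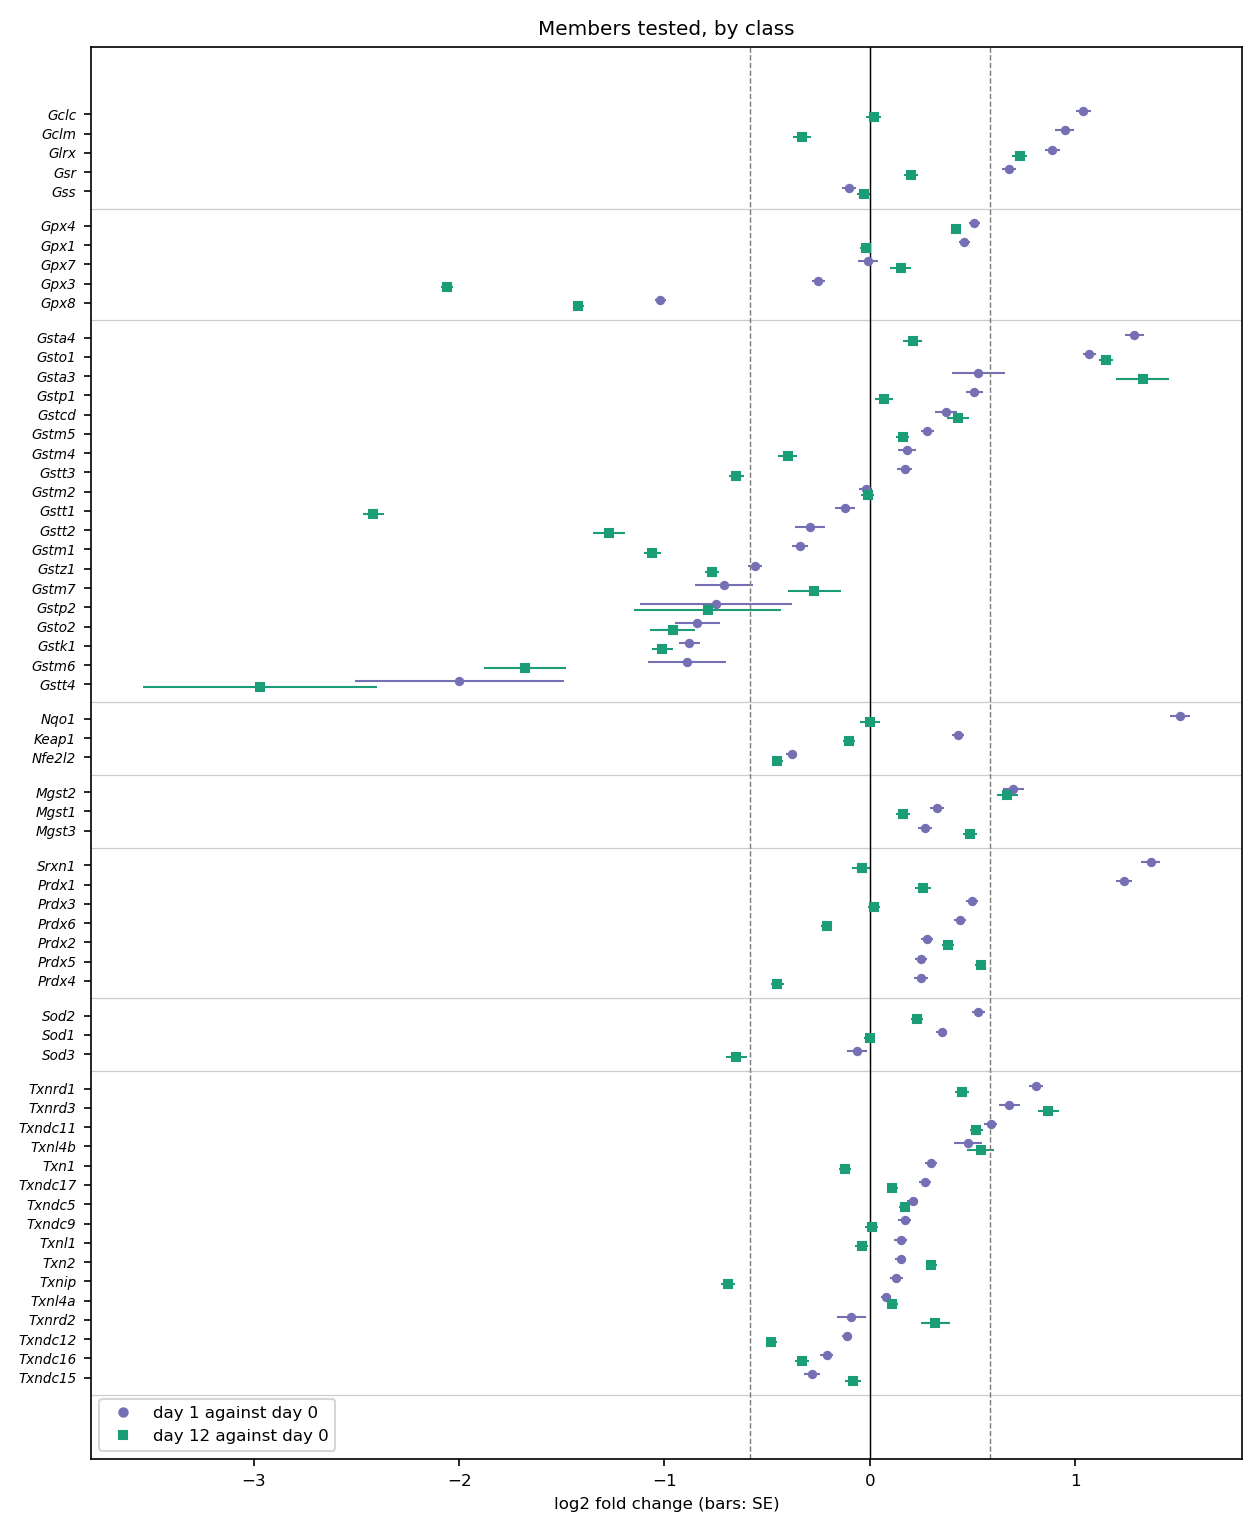
Log2 fold change of the 61 members tested (x axis, bars show the SE), one gene to a line and grouped by class, for day 1 (circles) and day 12 (squares) against day 0. The dashed lines mark the fold limit of 1.5. Circles past the right-hand line gather among glutathione synthesis genes, Nqo1, Srxn1 and Prdx1, and squares past the left-hand line among glutathione S-transferases.

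A rise at day 1 that had receded by day 12 was seen in 6 members. Gclc, Gclm, Gsta4, Nqo1, Prdx1 and Srxn1 were called higher at day 1 against day 0 and lower at day 12 against day 1. These 6 were 9.84% of the members tested, while 1.27% of all genes tested (181) had that pattern.

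Nqo1, a quinone reductase and a textbook Nrf2 target, moved furthest. It lies on chromosome 8 (107388225 to 107403206 in GRCm38, minus strand). The day 0 libraries held 185, 160, 171, 173 and 191 CPM, the day 1 libraries 490, 478, 494, 529 and 511, and the day 12 libraries 182, 190, 166, 155 and 187. Every day 1 library was above every other one, and the day 0 and day 12 libraries overlapped. The log2 fold change was 1.51 ± 0.049 at day 1 (adjusted p = 3.85e-18), 0.00 ± 0.049 at day 12 (adjusted p = 0.971) and -1.51 ± 0.049 between them (adjusted p = 4.7e-18).

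Srxn1, sulfiredoxin, repairs peroxiredoxins whose active cysteine has been overoxidised. Its level was 139, 121, 126, 136 and 145 CPM in the day 0 group, 311, 335, 345, 363 and 372 at day 1, and 128, 127, 129, 126 and 137 at day 12. Day 1 did not overlap with either other group (1.37 ± 0.046 on the log2 scale, adjusted p = 6.09e-18), and day 12 lay within the day 0 range (-0.04 ± 0.046, adjusted p = 0.422). Prdx1, the cytosolic peroxiredoxin that Srxn1 can repair, held 694, 663, 607, 688 and 734 CPM in the day 0 group, 1524, 1581, 1574, 1661 and 1635 at day 1, and 809, 808, 799, 775 and 870 at day 12. It rose by 1.24 ± 0.04 and fell by 0.97 from day 1 to day 12, and its day 12 libraries were all above those of day 0 by an amount under the fold limit (0.26 ± 0.039, adjusted p = 1.79e-06).

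The catalytic and the modifier subunit of glutamate-cysteine ligase rose together. Gclc was at 59.2, 58.0, 55.3, 57.7 and 61.9 CPM in the day 0 group, 117, 118, 122, 127 and 119 at day 1, and 56.6, 64.0, 59.1, 56.3 and 60.0 at day 12. Gclm was at 98.2, 85.8, 84.6, 92.1 and 101 CPM in the day 0 group, 167, 171, 178, 194 and 181 at day 1, and 72.3, 74.3, 73.1, 69.5 and 78.0 at day 12. The day 1 libraries of both genes stood clear of all others (1.04 ± 0.036 and 0.95 ± 0.046 against day 0). At day 12 Gclc overlapped with day 0 (0.02 ± 0.036, adjusted p = 0.64), whereas every Gclm library was below its day 0 range by less than the fold limit (-0.33 ± 0.046, adjusted p = 6.07e-07).

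Gsta4, the transferase best known for conjugating 4-hydroxynonenal, an aldehyde from lipid peroxidation, was at 25.4, 24.6, 28.2, 26.2 and 25.6 CPM at day 0. The day 1 libraries held 65.9, 64.8, 58.0, 65.8 and 64.2 CPM, and the day 12 libraries 29.0, 33.3, 29.0, 27.7 and 31.2. The rise at day 1 was 1.29 ± 0.047 (adjusted p = 2.65e-17) and the later difference from day 1 was -1.08 ± 0.047 (adjusted p = 6.82e-16).

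**Figure D2:**
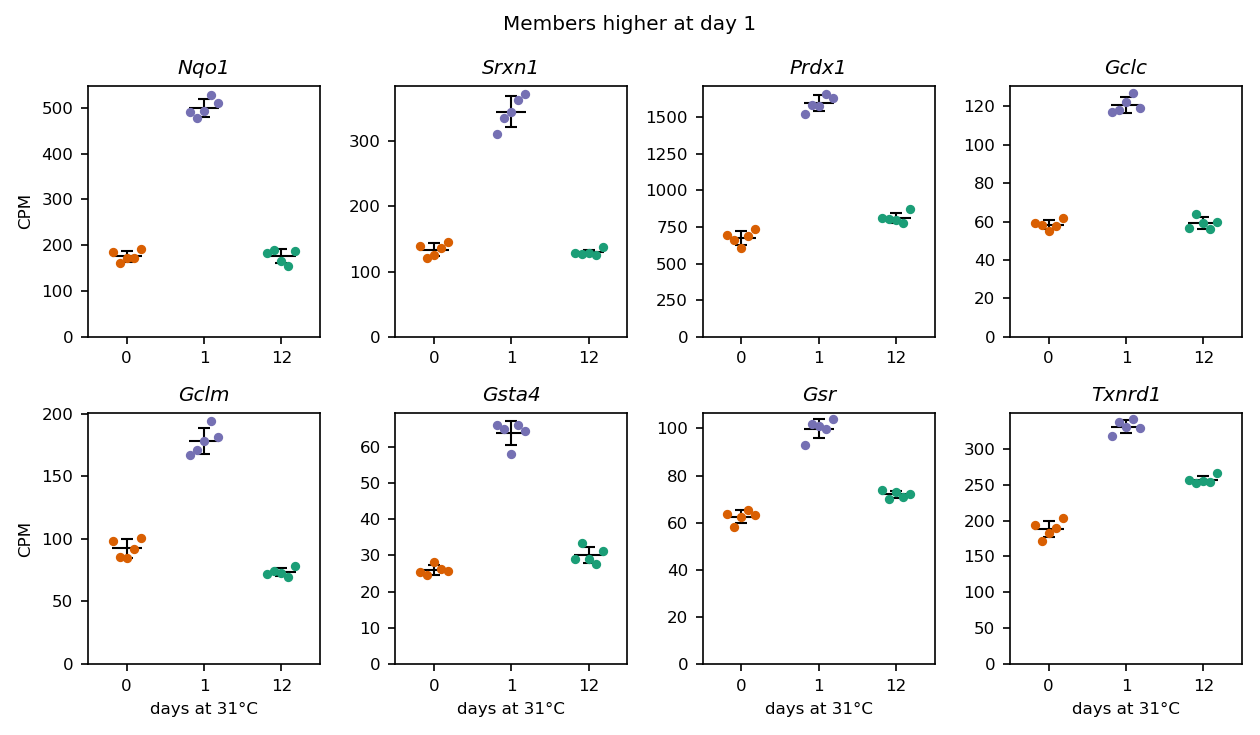
Level in CPM (y axis, from 0) of 8 members called higher at day 1, by days at 31°C (x axis), with 1 point per library, n = 5 per group. Horizontal bars are means and vertical bars SD. Day 1 lies above both other groups in each panel, as for Nqo1 (478 to 529 CPM against 155 to 191 in all other libraries).

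The promoters of the day 1 genes were searched for the core of the antioxidant response element, the DNA element that Nrf2 binds, spelled TGACNNNGC and read on both strands. The window ran from 250 bases before to 50 after each RefSeq start site in GRCm38.p6, and 57 members had an entry. The element's letters were found in 12 of 53 tested members with an entry (22.6%) and in 17.1% of all tested genes with one. Over all genes with an entry they were found in 14%, and over all 32851 single promoters in 12.4%. A gene with several start sites counted if any of its promoters held a match. Among members called higher at day 1 a match was found in 5 of 10 (Gclm, Prdx1, Srxn1, Txndc11 and Txnrd1). Gclc, Gsr and Gsta4, also higher at day 1, had no entry. Among tested members not called higher at day 1 it was found in 7 of 43. Among members called lower at day 12 it was found in 0 of 11 against day 0, and in 3 of 11 against day 1 (Gclm, Prdx1 and Srxn1). No match was found for Nqo1, which says only that these letters are not in this window. For 3 of the genes the stretch from 250 to 61 bases before the start is shown, 5′ to 3′ on the gene's strand, because it holds the match in a gene that rose; capitals mark the match, which in all 3 reads on the opposite strand as TGACGGTGC (Gclm), TGACTCAGC (Prdx1) and TGACAAAGC (Txnrd1).
Gclm promoter, chr3:122245307-122245496, plus strand: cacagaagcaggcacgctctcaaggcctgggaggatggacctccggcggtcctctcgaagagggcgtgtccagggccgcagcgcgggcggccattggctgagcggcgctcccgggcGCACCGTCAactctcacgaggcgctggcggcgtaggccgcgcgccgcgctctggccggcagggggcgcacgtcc
Prdx1 promoter, chr4:116685349-116685538, plus strand: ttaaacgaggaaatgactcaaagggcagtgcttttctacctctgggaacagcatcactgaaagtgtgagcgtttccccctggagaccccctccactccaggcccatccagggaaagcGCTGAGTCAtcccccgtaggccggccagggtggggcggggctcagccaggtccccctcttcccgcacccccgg
Txnrd1 promoter 2, chr10:82858956-82859145, plus strand: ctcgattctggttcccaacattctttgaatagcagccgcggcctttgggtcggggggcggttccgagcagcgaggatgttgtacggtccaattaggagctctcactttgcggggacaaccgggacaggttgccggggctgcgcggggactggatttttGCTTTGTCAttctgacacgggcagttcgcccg
The match begins 134, 133 and 92 bases before the start site of Gclm, Prdx1 and Txnrd1. In the GENCODE annotation the Txnrd1 stretch also overlaps an exon of Gm38560. A match is a description of these letters and not a test of Nrf2 binding.

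The other enzymes of glutathione synthesis and reduction divided into Gsr and Glrx, which rose, and Gss, which was not called. Gsr, glutathione reductase, was at 62.6 ± 2.81 CPM in the day 0 group (SD, n = 5), 100 ± 4.16 at day 1 and 72.1 ± 1.55 at day 12. It was higher at day 1 (0.68 ± 0.034), and the differences of day 12 from day 0 (0.20 ± 0.034) and from day 1 (-0.47 ± 0.033) were under the fold limit. Glrx, glutaredoxin, which takes glutathione off protein thiols, was at 107, 107, 98.5, 110 and 115 CPM in the day 0 group, 189, 201, 191, 202 and 213 at day 1, and 175, 169, 180, 180 and 186 at day 12. Both cool groups lay above day 0 (0.89 ± 0.038 and 0.73 ± 0.038). Gss, glutathione synthetase, was at 35.5 ± 1.21, 33.1 ± 0.764 and 34.8 ± 0.987 CPM (-0.10 ± 0.033 and -0.03 ± 0.033 against day 0). Of its exon bases, 15.4% lie in exons of Acss2, Gssos1 and Gssos2 on the other strand, and reads of these genes cannot be told apart from those of Gss because the strand setting of the counting was not given.

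The regulators themselves were not called. Nfe2l2, the gene of Nrf2, had means of 236 ± 5.83, 181 ± 4.5 and 173 ± 6.2 CPM in the day 0, 1 and 12 groups. Its log2 fold change against day 0 was -0.38 ± 0.028 and -0.45 ± 0.028. Keap1 was at 73.1 ± 1.58, 98.1 ± 2.96 and 68.3 ± 1.91 CPM (0.43 ± 0.028 and -0.10 ± 0.029), with 10.9% of its exon bases shared with another gene. Neither difference reached a fold of 1.5, and Nrf2 is regulated mainly through the stability of its protein, which was not measured here.

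The peroxiredoxins form the most abundant peroxide-reducing system in many cells. Of the 7 tested genes in this class, Prdx1 and Srxn1 were called higher at day 1 (7.71% of all genes were). At day 12 against day 0, 0 were called (13% of all genes were higher and 16.2% lower). Another comparison, day 12 against day 1, had 4 lower (Prdx1, Prdx4, Prdx6 and Srxn1, with 8.53% of all genes lower). All 7 had a day 1 fold change above 0. Prdx4, the peroxiredoxin of the endoplasmic reticulum, was at 99.8, 94.5, 97.1, 94.9 and 96.5 CPM in the day 0 group, 120, 118, 112, 108 and 118 at day 1, and 72.7, 67.8, 68.9, 69.2 and 74.6 at day 12. Its 3 groups did not overlap, and only the difference between day 12 and day 1 passed the fold limit (-0.70 ± 0.033). Prdx6, which also has phospholipase activity, was at 302 ± 8.13, 411 ± 15.9 and 262 ± 5.0 CPM (-0.65 ± 0.028 at day 12 against day 1). Prdx3, the mitochondrial form, was at 99.7 ± 2.27, 141 ± 3.17 and 101 ± 4.59 CPM (0.50 ± 0.03 at day 1). Prdx2 was at 189 ± 5.57, 229 ± 4.31 and 246 ± 10.7 CPM, and Prdx5 at 209 ± 5.45, 249 ± 6.34 and 304 ± 9.07 CPM. These last 2, unlike Prdx4 and Prdx6, had their highest mean at day 12 (0.38 ± 0.03 and 0.54 ± 0.027 against day 0, not called), and 11.5% and 19.1% of their exon bases are shared with genes on the other strand.

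Among the thioredoxin genes, the reductases Txnrd1 and Txnrd3 rose and Txnip fell late. At day 12 against day 0, 14 of 16 tested members were not called, where 13% of all genes were called higher and 16.2% lower. Txnrd1, the cytosolic selenoenzyme that reduces thioredoxin, was at 194, 172, 183, 189 and 203 CPM in the day 0 group, 318, 337, 330, 341 and 329 at day 1, and 257, 252, 255, 254 and 266 at day 12. The 3 groups did not overlap. The day 1 rise was called (0.81 ± 0.034) and the day 12 difference was not (0.45 ± 0.034).

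Txnrd3, a reductase that also carries a glutaredoxin domain, was at 8.10, 7.98, 9, 7.63 and 7.65 CPM in the day 0 group, 12.8, 13, 12.8, 13.4 and 12.9 at day 1, and 15.5, 15.0, 15.3, 14.4 and 13.9 at day 12 (0.68 ± 0.051 and 0.87 ± 0.051 against day 0). The mitochondrial reductase Txnrd2 was at 7.44 ± 0.125, 6.99 ± 0.615 and 9.29 ± 0.909 CPM and was not called. Txn1, the cytosolic thioredoxin, was at 249 ± 11.1, 306 ± 9.32 and 229 ± 4.7 CPM (0.30 ± 0.03 at day 1), and mitochondrial Txn2 at 63.9 ± 0.647, 70.8 ± 1.32 and 78.8 ± 1.9 CPM (0.30 ± 0.026 at day 12). Neither thioredoxin was called in any comparison. Txndc11, a thioredoxin-domain protein of the endoplasmic reticulum, was called at day 1 by a narrow margin (27.5 ± 0.218 and 41.4 ± 1.19 CPM, 0.59 ± 0.031). Its call was lost without day 1 replicate 1 or replicate 4, at 0.58 in both cases. The remaining tested Txn members, which were Txndc5, Txndc9, Txndc12, Txndc15, Txndc16, Txndc17, Txnl1, Txnl4a and Txnl4b, had no call.

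Txnip had some of the highest counts of any member and fell only late. It was at 1277, 1219, 1343, 1189 and 1241 CPM in the day 0 group, 1441, 1430, 1287, 1322 and 1378 at day 1, and 767, 770, 783, 779 and 782 at day 12. Days 0 and 1 overlapped and day 12 lay below both (-0.69 ± 0.033 against day 0, -0.82 ± 0.033 against day 1). An antisense gene, Gm15441, shares 19.4% of its exon bases.

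Of the 5 glutathione peroxidases tested, Gpx3 and Gpx8 fell and Gpx1, Gpx4 and Gpx7 were not called in any comparison. Gpx3 (chromosome 11, 54902453 to 54910377, plus strand) encodes the secreted plasma peroxidase, to which adipose tissue contributes. It was at 793, 840, 835, 783 and 787 CPM in the day 0 group, 693, 701, 663, 667 and 672 at day 1, and 189, 197, 200, 197 and 183 at day 12. The 3 groups did not overlap, and most of the fall came after day 1 (-0.25 ± 0.03 at day 1, -2.06 ± 0.031 at day 12, adjusted p = 1.4e-24).

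Gpx8, a membrane peroxidase of the endoplasmic reticulum, fell early. It was at 215, 223, 211, 217 and 222 CPM in the day 0 group, 110, 106, 108, 105 and 107 at day 1, and 79.0, 79.8, 83.2, 81.3 and 82.3 at day 12 (-1.02 ± 0.025 and -1.42 ± 0.026 against day 0). Gpx1, the cytosolic selenoenzyme, was at 497 ± 16.2, 686 ± 17.1 and 490 ± 12.0 CPM, a difference of 0.46 ± 0.027 at day 1 and -0.02 ± 0.027 at day 12. Gpx4, which reduces lipid hydroperoxides inside membranes, was at 316 ± 5.48, 451 ± 10.4 and 423 ± 13.6 CPM (0.51 ± 0.026 and 0.42 ± 0.026). Both selenoenzymes were above day 0 in every day 1 library, by less than the fold limit.

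The superoxide dismutases turn superoxide into hydrogen peroxide. Sod3, the secreted form, was at 1722 ± 145 CPM in the day 0 group, 1649 ± 121 at day 1 and 1100 ± 43.6 at day 12. It was called lower at day 12 against day 0 (-0.65 ± 0.05). Its difference from day 1 was at the limit (-0.58 ± 0.05), and it became a call without day 1 replicate 1, 2 or 3 or day 12 replicate 1, 2 or 5 (-0.59 to -0.61), and also with DESeq2 size factors, the DESeq2 Wald test, total counts and both reference scalings (-0.59, relative to the median of all genes for the last 3). Cytosolic Sod1 was at 193 ± 6.5, 246 ± 5.85 and 193 ± 1.45 CPM (0.35 ± 0.026 at day 1), and mitochondrial Sod2 at 386 ± 21.1, 559 ± 7.0 and 452 ± 9.85 CPM (0.53 ± 0.031 and 0.23 ± 0.031). Neither was called.

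Glutathione S-transferases were the class with the most decreases, and also the largest class, with 19 of the 61 members tested. At day 1, 2 were called higher and 5 lower (7.71% and 13.4% of all genes). At day 12 against day 0 there were 2 higher and 9 lower (13% and 16.2% of all genes). The median log2 fold change of the class was -0.12 at day 1 and -0.65 at day 12. The theta genes Gstt1, Gstt2, Gstt3 and Gstt4 lie side by side on chromosome 10 (75774115 to 75837424), and all 4 were lower at day 12. Gstt1 was at 85.8, 85.2, 87.1, 86.3 and 85.7 CPM in the day 0 group, 85.6, 75.9, 73.4, 80.3 and 81.9 at day 1, and 17.6, 16.8, 15.6, 13.4 and 16.7 at day 12. It barely moved at day 1 (-0.12 ± 0.047) and had the second largest fall of any member at day 12 (-2.42 ± 0.051, adjusted p = 4.36e-22).

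Gstt3 was at 85.7, 80.7, 81.9, 84.7 and 82.4 CPM in the day 0 group, 96.1, 91.1, 89.5, 94.3 and 95.8 at day 1, and 55.8, 54.8, 49.1, 49.9 and 54.4 at day 12 (-0.65 ± 0.035 against day 0). Gstt2 was at 6.95, 6.35, 7.72, 7.88 and 6.57 CPM in the day 0 group, 5.38, 6.25, 5.83, 5.86 and 5.62 at day 1, and 3.05, 2.79, 2.85, 2.92 and 3.10 at day 12 (-1.27 ± 0.076). For both genes the day 12 libraries lay below all others. Gstt4 was close to the floor, with 19 to 32 counts per library at day 0, 0 to 11 at day 1 and 0 to 6 at day 12 (-2.0 ± 0.51 and -2.97 ± 0.57), so the size of its fall is loosely fixed. Theta genes resemble each other in sequence, as do the mu, alpha, pi and omega genes, and reads may have been split among relatives. A gene on the same strand, Gm20441, shares 13.6% of the exon bases of Gstt3.

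The mu genes, 7 of which lie within 149 kb of chromosome 3 (107895821 to 108044894), did not move as a block. Gstm1, the most abundant of them, was at 256, 261, 250, 251 and 241 CPM in the day 0 group, 206, 190, 190, 199 and 208 at day 1, and 114, 137, 117, 121 and 115 at day 12. Its groups descended without overlap (-0.34 ± 0.041 at day 1, not called, and -1.06 ± 0.042 at day 12). Gstm6 was at 1.68, 1.63, 1.27, 0.944 and 1.54 CPM in the day 0 group, 0.896, 0.653, 0.837, 0.642 and 0.764 at day 1, and 0.411, 0.353, 0.534, 0.542 and 0.372 at day 12, and was called lower in all 3 comparisons (-0.89 ± 0.19, -1.68 ± 0.2 and -0.79 ± 0.21).

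Gstm7 was lower at day 1 only, at 4.48, 4.53, 3.66, 4.88 and 5.47 CPM in the day 0 group, 3.47, 2.67, 2.10, 2.26 and 3.48 at day 1, and 3.83, 4.60, 3.39, 3.09 and 4.14 at day 12 (-0.71 ± 0.14 at day 1 and -0.27 ± 0.13 at day 12). Its day 12 libraries overlapped with both other groups. Neighbouring Gstm2, Gstm4 and Gstm5 had no call, and Gstm3 was not tested, with at most 9 counts in any library.

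The omega genes Gsto1 and Gsto2, which lie within 31.4 kb on chromosome 19, were called in opposite directions. Gsto1 was at 64.6, 67.0, 62.5, 64.5 and 72.3 CPM in the day 0 group, 138, 141, 134, 140 and 140 at day 1, and 146, 142, 148, 147 and 152 at day 12 (1.07 ± 0.033 and 1.15 ± 0.033). Gsto2 was at 3.71, 3.97, 3.43, 3.95 and 3.67 CPM in the day 0 group, 2.00, 2.17, 1.71, 2.30 and 2.30 at day 1, and 1.54, 2.07, 2.2, 2.02 and 1.82 at day 12 (-0.84 ± 0.11 and -0.96 ± 0.11). Each gene had both cool groups on the same side of day 0 with no overlap.

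Gsta3 was the only member called higher at day 12 than at day 1. It was at 1.69, 1.71, 1.27, 1.27 and 2.17 CPM in the day 0 group, 2.23, 2.10, 2.49, 2.54 and 2.37 at day 1, and 4.14, 4.72, 4.14, 3.24 and 4.09 at day 12 (1.33 ± 0.13 against day 0). At day 1 it was not called (0.53 ± 0.13), but it was without day 0 replicate 5 (0.65). The pi gene Gstp1 was at 41.0 ± 3.09, 58.2 ± 1.29 and 43.1 ± 2.25 CPM and had no call, and neither had Gstp2, with 4 to 39 counts per library.

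Gstk1, a transferase of mitochondria and peroxisomes, and Gstz1, which also acts in tyrosine breakdown, were both lower at day 12 against day 0. Gstk1 was at 32.2, 30.5, 31.2, 32.1 and 32.4 CPM in the day 0 group, 18.5, 16.7, 15.3, 17.9 and 17.7 at day 1, and 17.0, 15.5, 13.9, 15.9 and 16.5 at day 12 (-0.88 ± 0.051 and -1.01 ± 0.051). Gstz1 was at 134, 140, 135, 142 and 129 CPM in the day 0 group, 92.9, 90.4, 88.8, 97.3 and 93.5 at day 1, and 79.4, 85.6, 76.9, 76.3 and 80.6 at day 12. It was called at day 12 (-0.77 ± 0.034) and fell just short at day 1 (-0.56 ± 0.034). Exons of Gm6566 and Pomt2 on the other strand share 12.2% of its exon bases.

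The microsomal transferases are membrane proteins of a separate family, and all 3 had fold changes above 0 at both days. Mgst2, which can also make leukotriene C4, was at 26.5, 26.2, 25.2, 28.5 and 28.9 CPM in the day 0 group, 44.4, 45.2, 43.4, 43.2 and 43.4 at day 1, and 43.2, 39.8, 39.9, 41.6 and 50.2 at day 12 (0.70 ± 0.051 and 0.67 ± 0.051). Mgst1 and Mgst3 were not called (0.33 ± 0.034 and 0.27 ± 0.034 at day 1, 0.16 ± 0.034 and 0.49 ± 0.034 at day 12).

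**Figure D3:**
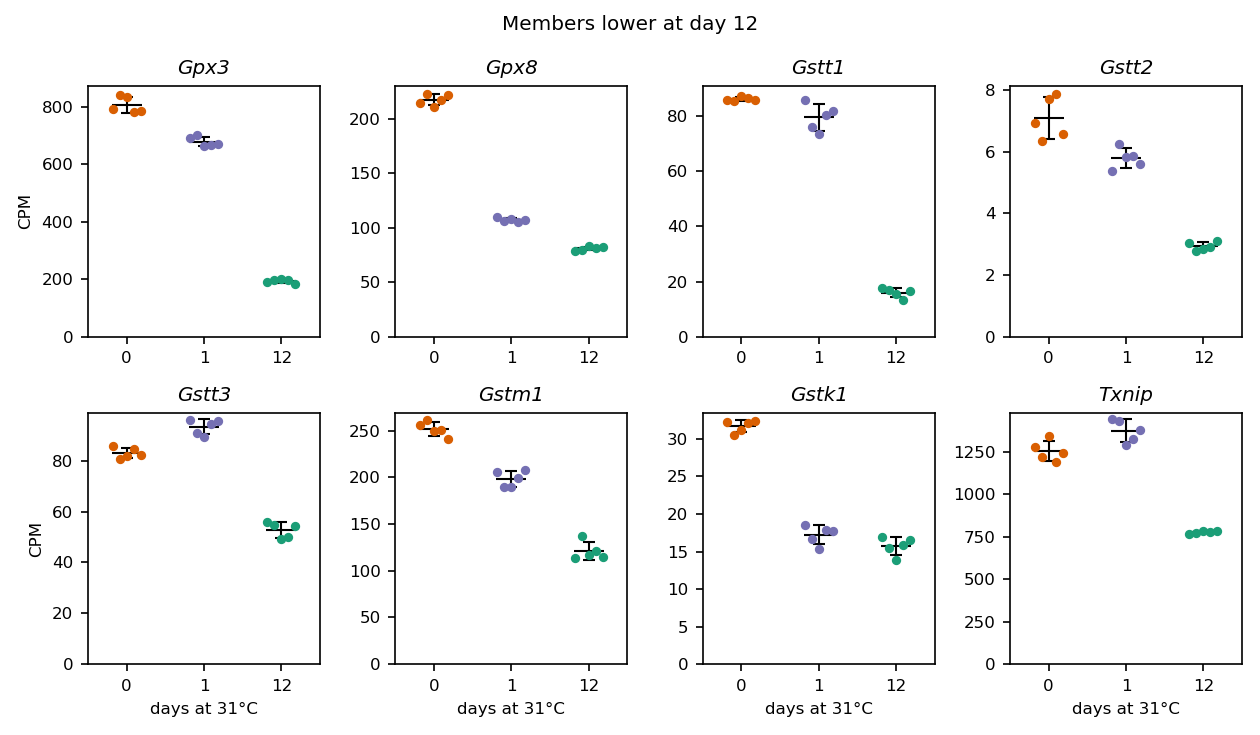
Level in CPM (y axis, from 0) of 8 members called lower at day 12 against day 0, by days at 31°C (x axis), with 1 point per library, n = 5 per group, and mean ± SD. Gpx3, Gstt1, Gstt2, Gstt3, Gstm1 and Txnip fell between days 1 and 12, and Gpx8 and Gstk1 were already low at day 1 (105 to 110 CPM for Gpx8 against 211 to 223 at day 0).

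Sorted by time, 4 members were higher than day 0 at both days (Glrx, Gsto1, Mgst2 and Txnrd3, 6.56% against 4.58% of all genes tested), and 5 were lower at both (Gpx8, Gstk1, Gstm6, Gsto2 and Gstt4, 8.2% against 8.42%). Another 6 were lower at day 12 than in either other group without a call at day 1 (Gpx3, Gstm1, Gstt1, Gstt2, Gstt3 and Txnip, 9.84% against 4.32%). In 31 of 61 members there was no call in any comparison (50.8%, against 60.4%). Without the fold limit, 40 members were higher (65.6%, against 35.3% of all genes) and 16 lower (26.2%, against 36.2%) at day 1. The 5 day 1 libraries lay entirely above the day 0 libraries in 36 members and entirely below in 14, and 57.4% of all genes had no overlap in that comparison. At day 12 the counts against day 0 were 23 and 21 (64.6% of all genes without overlap) and against day 1 they were 7 and 35 (52.5%). The summed stromal progenitor markers were lower at day 1 than at day 0 and lowest at day 12, without overlap, and the adipocyte markers were highest at day 1. The stromal sum was carried by Col1a1 (2649 ± 175 to 1975 ± 140 CPM from day 0 to day 12, not called) and Ly6a (called lower at day 12, -1.42 ± 0.039), while Pdgfra (0.34 ± 0.027), Pdgfrb (0.49 ± 0.036) and Thy1 (0.08 ± 0.036) were above 0 at day 12 without a call. In the adipocyte sum, Cidec, Lep and Pparg had day 1 means below those of day 0. Their part in these results was not tested.

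On a scale of mean CPM per kilobase of exon, which allows genes to be compared, the highest members at day 0 were Sod3 (461), Gpx3 (446), Txnip (402), Gpx1 (345) and Txn1 (237). Sod3 and Gpx3 did not stand apart there beyond their spread. At day 1 the highest was Prdx1 (524), followed by Gpx1 (476), Sod3 (441), Txnip (439) and Gpx3 (375), with Nqo1 at 322. At day 12 Gpx1 (340) and Sod3 (294) led, ahead of Prdx1 (267), Txnip (248) and Gpx4 (246), while Gpx3 had dropped to 107. Across the classes the lowest tested member at day 12 was Gstt4 (0.0305).

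**Figure D4:**
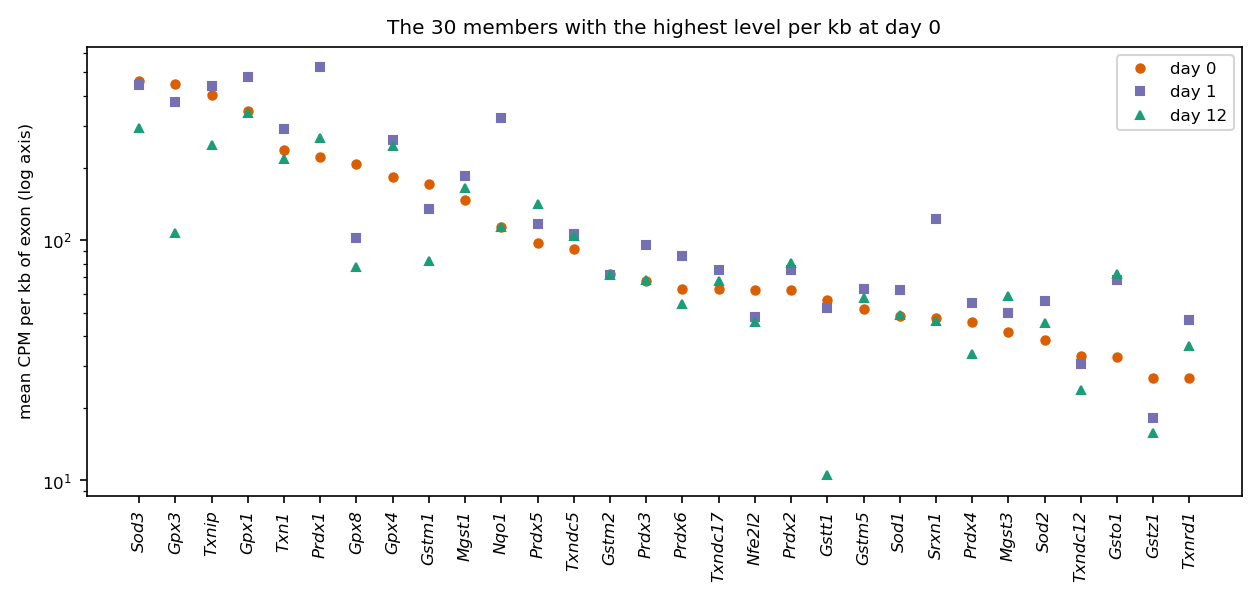
Mean level in CPM per kilobase of exon (y axis, log scale) of the 30 members with the highest level at day 0, in that order, at day 0 (circles), day 1 (squares) and day 12 (triangles), n = 5 per group. Nqo1 and Srxn1 stand out upward at day 1, and Gpx3, Gpx8 and Gstt1 downward at day 12.

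The 7 members that were not tested (Gpx2-ps1, Gsta1, Gstm3, Prdx6b, Txndc2, Txndc3 and Txndc8) had at most 9 counts in any library. Prdx6b is a near copy of Prdx6. Fitted without the filter, 5 of the 7 had no call in any comparison, and Gpx2-ps1 and Gsta1 were called higher at day 12 against day 0 (adjusted p = 0.0192 and 0.0363 in the edgeR test). Gpx2-ps1 had 0 counts in every day 0 library and, at day 12, 6 and 4 counts in 2 libraries and 0 in the others. Gsta1 had 0 or 1 count per library at day 0 and 1 to 4 at day 12, so the size of either difference is not fixed by these counts.

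Genes next to the family in the pathway were described from lists chosen for their function. The count in each list can be set beside the share of all genes tested. At day 1 against day 0, 7.71% of all genes were called higher and 13.4% lower. The shares were 13% and 16.2% at day 12 against day 0, and 10.6% and 8.53% at day 12 against day 1. Of 22 known Nrf2 targets outside the family, 7 were higher at day 1 (Hmox1, Blvra, Blvrb, Pgd, Esd, Cbr3 and Slc7a11) and 1 lower (Ephx1), with a median log2 fold change of 0.39. The day 12 comparison with day 0 had 2 higher genes (Blvra and Slc7a11) and 5 lower ones (Hmox1, Ftl1, Fth1, Ephx1 and Osgin1), with a median of -0.02. From day 1 to day 12, 6 were lower and 0 higher (median -0.40). Ephx1, a microsomal epoxide hydrolase, was at 802 ± 15.3, 494 ± 12.2 and 354 ± 10.4 CPM (-0.70 ± 0.026 and -1.18 ± 0.027 against day 0). Osgin1 was at 26.2 ± 0.896, 28.8 ± 1.92 and 13.3 ± 1.01 CPM (-0.97 ± 0.051 at day 12), and Blvra, biliverdin reductase, at 19.0 ± 1.67, 28.8 ± 0.309 and 32.9 ± 0.495 CPM (0.79 ± 0.044 at day 12). Hmox1, the haem oxygenase, was at 567 ± 47.3, 1114 ± 50.6 and 355 ± 8.84 CPM, called higher at day 1 (0.97 ± 0.043) and lower at day 12 (-0.68 ± 0.043). It thus passed the test in opposite directions at the 2 days.

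The genes that supply cysteine and break glutathione down gave a mixed picture. Of 19 tested, 2 were higher (Slc7a11 and Ggt7) at day 1 and 5 lower (Cth, Cbs, Ggt1, Ggt5 and Anpep), beside 7.71% and 13.4% of all genes. After 12 days 3 were higher than at day 0 (Slc7a11, Dpep1 and Abcc5) and 6 lower, beside 13% and 16.2% of all genes. Slc7a11, the cystine carrier of system xc-, was at 14.1 ± 2.34 CPM in the day 0 group, 31.7 ± 3.71 at day 1 and 24.0 ± 0.94 at day 12 (1.17 ± 0.085 and 0.77 ± 0.086). The enzymes that make cysteine from methionine moved the other way. Cbs was at 2.35 ± 0.458, 1.30 ± 0.221 and 0.644 ± 0.0745 CPM (-1.87 ± 0.16 at day 12) and Cth at 7.35 ± 0.587, 3.68 ± 0.613 and 2.73 ± 0.437 CPM (-1.43 ± 0.11). Ggt5, an extracellular enzyme that cleaves glutathione conjugates, was at 39.7 ± 1.26, 19.0 ± 1.26 and 9.34 ± 0.629 CPM, with the largest fall in the list (-2.09 ± 0.049).

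Counts in the other lists stand beside the same shares of all genes. These were 7.71% higher and 13.4% lower at day 1, and 13% and 16.2% at day 12 against day 0. Of 19 other enzymes of hydroperoxides, disulphides and aldehydes, 1 (Glrx5) was higher at day 1, when 2 (Ero1l and Pxdn) were lower. Msra was the 1 higher gene at day 12 against day 0, and Ero1l, Sesn2 and Nxn were the 3 lower ones. Ero1l, the oxidase that drives disulphide formation in the endoplasmic reticulum and yields hydrogen peroxide, was at 847 ± 123, 259 ± 5.14 and 113 ± 6.41 CPM (-1.71 ± 0.064 and -2.91 ± 0.067). Sesn2 was at 67.1 ± 2.57, 63.9 ± 1.24 and 36.3 ± 1.51 CPM (-0.88 ± 0.033 at day 12), and Nxn, nucleoredoxin, at 60.1 ± 1.15, 52.2 ± 1.96 and 35.5 ± 0.824 CPM (-0.76 ± 0.031). Of 14 genes of other selenoproteins and selenium handling, 2 (Sepx1 and Sephs1) were higher at day 1 and 0 lower. The day 12 comparison with day 0 had 3 higher genes and 1 lower one, which were Sephs1, which makes selenophosphate (34.4 ± 1.58, 52.8 ± 1.51 and 68.6 ± 1.75 CPM, 1.00 ± 0.034 at day 12), Sepp1, the selenium carrier (0.68 ± 0.032), Sepx1 (0.67 ± 0.037) and, lower, the deiodinase Dio2 (-1.16 ± 0.11).

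Of 7 tested genes that produce superoxide or peroxide, 1 was higher (Maoa) and 1 lower (Maob) at day 1. Against day 0, Cybb and Maoa were the 2 higher genes after 12 days, and Duox1, Xdh and Maob the 3 lower ones. Cybb, the catalytic subunit of the phagocyte NADPH oxidase, was at 5.95 ± 1.08, 5.80 ± 0.795 and 13.4 ± 1.34 CPM (1.17 ± 0.1 at day 12). Of the macrophage markers, Lyz2 (1.07 ± 0.18) and Csf1r (1.47 ± 0.31) were also called higher at day 12, at 1.96 ± 0.336 and 0.562 ± 0.207 CPM. Cd68 (-0.55 ± 0.089) and Emr1 (-0.65 ± 0.48) were not called at day 12. At day 1 Csf1r was called higher (2.03 ± 0.31) and Emr1 lower (-1.16 ± 0.5), while Cybb was not called (-0.03 ± 0.11). Ptprc and Itgam were too low to be tested. The part of macrophages in the rise of Cybb was not tested. Maob was at 73.5 ± 1.61, 48.2 ± 2.06 and 31.8 ± 1.2 CPM (-1.21 ± 0.034). Duox1 was below 1 CPM throughout (-3.03 ± 0.73 at day 12).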

How the data were processed

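Reads were aligned by the authors to mm10 with TopHat2 2.0.13 and Bowtie2 2.2.1, per the labels, and the deposited counts used here are whole reads per gene made with HTSeq. The strand setting of the counting is not given in the sources used here. The deposited regularised log2 values and the authors' tables of fold changes, p-values and scaled means were not used. Genes were filtered with filterByExpr at a minimum count of 10, libraries were scaled by TMM (factors 0.94586 to 1.0944), and all 15 libraries entered 1 quasi-likelihood fit (edgeR 4.0.16, run under R 4.3.3), with contrasts between the 3 groups and no covariate. The SE is the size of the log2 fold change over the square root of F. p-values were adjusted over all 14293 genes. The fit was tested on simulated data, and the outcome of that test is not given here. No libraries were duplicates, and replicate numbers were not found to pair samples.

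Members and lists were chosen with earlier results of these data known. Members called in any comparison with a group mean of at least 1 CPM were given by library, or for all but the 25 largest changes by mean and SD, and genes of glutathione synthesis, the regulators, dismutases, peroxiredoxins and main thioredoxin genes were always named. In the other lists, the called genes with the 3 largest changes at day 12 were named. Slc7a11, Hmox1, Gpx7, single marker genes, the genes that make up a count and the levels per kilobase were picked out after their values were seen. Positions and exon overlap came from GENCODE vM21 on GRCm38, the same build as mm10, and promoters from RefSeq. Alternatives were other scalings, DESeq2 1.42.0, other filters, no fold limit, a replicate block, the library series, and each replicate left out. The library series was inferred from the leading digits of the sample numbers (1070 or 1079), and the labels do not name a series or batch.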

Additional observations from a re-analysis of the deposited data

Results flagged for a closer look

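In 75 groups of 5 libraries of the members given by library, 2 had a library standing apart from the other 4, where chance gives about 1 in 20 groups. Srxn1 had 1 high library at day 12 (replicate 5, 137 CPM, against 126 to 129 in the others), and Gsta4 had 1 low library at day 1 (replicate 3, 58 CPM, against 64.2 to 65.9). The effect of 31°C against day 0 differed between day 1 and day 12 in 16 members. The call used the edgeR test of that difference together with the fold limit of 1.5. Of these members, 15 were lower at day 12 (24.6%, against 8.53% of all genes) and 1 higher (1.64%, against 10.6%). Without the fold limit, 39 were lower and 11 higher. The log2 fold change of day 12 against day 1 was -1.03 for Gclc, -1.28 for Gclm, -1.51 for Nqo1, -1.41 for Srxn1, -0.97 for Prdx1 and -1.08 for Gsta4, the members that rose at day 1. It was -1.81 for Gpx3, -2.31 for Gstt1, -0.97 for Gstt2, -0.82 for Gstt3, -0.72 for Gstm1, -0.79 for Gstm6 and -0.82 for Txnip, all called lower at day 12 against day 0. It was -0.70 for Prdx4 and -0.65 for Prdx6, which were called in no comparison with day 0, and 0.79 for Gsta3.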

How the results depend on the processing

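Of 51 calls of named members, 50 kept their direction and side of the threshold under each of the 25 alternatives in which the gene was fitted. Gstm6 had no value when genes under 1 CPM on average were left out. Values under the scalings that shift the median of all genes were taken relative to that median. This takes out most of what those scalings change, so they do not test the calls. Txndc11 at day 1 lost its call in 5 of the alternatives (0.56 to 0.58). Without the fold limit, 40 members were higher and 16 lower at day 1 against day 0 (35.3% and 36.2% of all genes), 25 and 22 at day 12 against day 0 (39.2% and 37.4%), and 11 and 39 at day 12 against day 1 (34.3% and 32.8%). Scaling by total counts gave 12 members higher at day 12 against day 0 and 3 against day 1. Scaling to the summed reference genes gave 57 higher and 0 lower at day 12 against day 0 and 56 and 0 against day 1, so that as fitted no lower call was left, and scaling to their geometric mean, added after seeing the data, gave 41 and 4, and 33 and 3. The medians of all genes moved with these scalings, by 2.02 and 1.97, and by 0.90 and 0.92. The replicate block gave 14 members lower at day 12 against day 0 in place of 13 and left the other 5 counts as they were. Correlations of same-numbered libraries ran from -0.026 to 0.044, and 8 of 15 pairs matched their own number best, so the numbers were taken as names only. Among values near 0 that were not called, Nqo1 at day 12 against day 0 was -0.0068 with DESeq2 size factors and when genes under 1 CPM on average were left out, -0.0069 with the DESeq2 Wald test, -0.0096 with total counts, -0.00045 with the reference sum and -0.005 with their geometric mean, and -0.03 to 0.044 with 1 replicate left out. Sod1 there was -0.0059 with DESeq2 size factors and the Wald test, -0.0062 without those genes, -0.0093, -0.007 and -0.0086 with those 3 scalings, and -0.0049 in the 11 libraries of the larger library series, and -0.007 to 0.023 with 1 replicate left out. With 1 replicate left out, Gclc ran from -0.009 to 0.04 and Prdx3 from -0.00083 to 0.039, and Gsto2 at day 12 against day 1 was 0.00042 in the larger library series. The cause was not tested. Gsta3 (0.61) and Gstz1 (-0.60) at day 1 were called in that series. Without the filter on low counts, 7 members were higher at day 12 against day 0, the added ones being Gpx2-ps1 and Gsta1. Members under 10 counts per library are limited by depth.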
